A study of Arabidopsis thaliana with 16 samples.

Results

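The genes described here are the protein-coding genes of the plastid genome of Arabidopsis thaliana, sorted by what their products do. RefSeq lists 78 such gene symbols on the plastid chromosome, and 69 of them were measured by a probe set that the array annotation assigns to that single gene. They were chosen by symbol and chromosome, with no measured value in the rule, and each has 1 probe set. They encode 5 subunits of photosystem I, 15 of photosystem II, 6 of the cytochrome b6f complex, 6 of the ATP synthase and 10 of the NDH complex (NADH dehydrogenase-like), 15 ribosomal proteins (7 of the large and 8 of the small subunit), and 4 subunits of the plastid-encoded RNA polymerase. The other members are the photosystem I assembly factors ycf3 and ycf4 and a set of 6: rbcL (large subunit of Rubisco), accD (fatty acid synthesis), clpP (a protease subunit), matK (an intron maturase), ccsA (cytochrome c maturation) and cemA (an envelope membrane protein). Among the genes not analysed here, ndhB, rpl2, rpl23, rps7, rps12, ycf1 and ycf2 appear only on probe sets annotated with several genes.

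Plastid genes are read by a bacterial-type RNA polymerase whose core the plastid itself encodes (rpoA, rpoB, rpoC1 and rpoC2) and by phage-type polymerases encoded in the nucleus. Photosystem genes depend mainly on the plastid-encoded enzyme, the rpoB-rpoC1-rpoC2 cluster and accD are read largely by the nuclear-encoded one, and many other genes can be read by both. Most plastid genes lie in clusters that are transcribed together and then cut, edited and trimmed by nuclear-encoded proteins, so the amount of each RNA is set by processing and decay as well as by transcription. In plastids a poly(A) tail marks an RNA for decay, and most plastid mRNAs carry no long tail. The labels name the standard Affymetrix protocol for biotinylated cRNA from total RNA; how the first strand was primed is not given in the sources used here.

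Seedlings grown at 22 °C were harvested whole at 7 days of age. A water bath held at 37 °C gave the heat treatment, which lasted 1 h, and controls stayed at 22 °C. There are 4 lines, each at both temperatures, with 2 Affymetrix arrays in each of the 8 groups (16 arrays in all). WT is Col-0, and hsfa2 is a knockout of the heat shock factor gene HSFA2 in Col-0. QK is a quadruple knockout of HSFA1a, HSFA1b, HSFA1d and HSFA1e, the activators that start the heat shock response, in a mixed Col-0 and Ws background. A2QK is a single line (A2QK-10) of QK that carries HSFA2 under the CaMV 35S promoter, a strong viral promoter active in most tissues. The mixed background of QK and A2QK cannot be told apart from the loss of the 4 factors, also for the plastid genome. Nothing in the labels ties the 2 arrays of a group to separately grown seedlings. The p-values rest on the spread between the 2 samples of each group, pooled over all groups of a fit, and that spread may be technical. In whole seedlings fewer plastids or green cells and less RNA per plastid cannot be told apart. All levels below are log2 RMA values, and levels of different probe sets are not set against each other.

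The arrays stand apart in ways that touch every result below. In WT and QK the replicates of a group differed far more for plastid genes than for other probe sets. The median absolute difference over the 69 members was 1.48 in WT at 22 °C, 1.15 in QK at 22 °C, 1.25 in WT at 37 °C and 1.16 in QK at 37 °C. Over all probe sets it was 0.27, 0.24, 0.25 and 0.23. In hsfa2 and A2QK it was 0.13 to 0.17, close to the 0.15 to 0.20 of all probe sets. Replicate 2 was mostly the higher one in WT and QK (atpA, the alpha subunit of the ATP synthase, stood at 7.61 and 11.31 in WT at 22 °C). In contrast, petD, psbD and psaC were higher in replicate 1 of both lines at 22 °C. Replicate 2 was the higher one in all 4 of these groups for 51 of the 69 members and replicate 1 for 5 (psaC was higher in replicate 2 of QK at 37 °C). The correlation across all probe sets of replicate 1 minus replicate 2 was 0.53 to 0.79 between the groups, so arrays with the same number in WT and QK were treated as paired. The comparisons within and between these 2 lines are also given from a fit with the replicate number as a block (the blocked fit). Control probe sets differed between the lines as well. The 25S ribosomal RNA probe set read 11.2 to 11.9 on all 8 hsfa2 and A2QK arrays, 3.96 to 7.00 on 6 of the 8 WT and QK arrays. It read 11.5 and 11.8 on replicate 2 of WT and of QK at 37 °C. The 3′ minus 5′ difference of control probe sets reflects RNA quality and how far labelling reached from the 3′ end. For actin it was 0.97 to 1.57 in WT and QK and 1.91 to 2.90 in hsfa2 and A2QK. For GAPDH it was -0.48 to -0.06 and 0.02 to 0.45 in the same order. For ubiquitin the line pairs overlapped, at -0.45 to 0.04 and -0.23 to 0.60. The part of these differences in the results was not tested. As a check of the tissue, psaB, a core protein of photosystem I and the brightest of its class, ranged from 10.53 to 12.38 (median 11.38 over the 16 arrays). The median of all 69 members lay between 7.50 and 9.88 on single arrays. Not all members were bright, and petG of the cytochrome b6f complex ranged from 3.13 to 5.68. At the other end, 3 members (rpoB, rps14 and ndhF) stayed under 5 on every array.

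**Figure D1:**
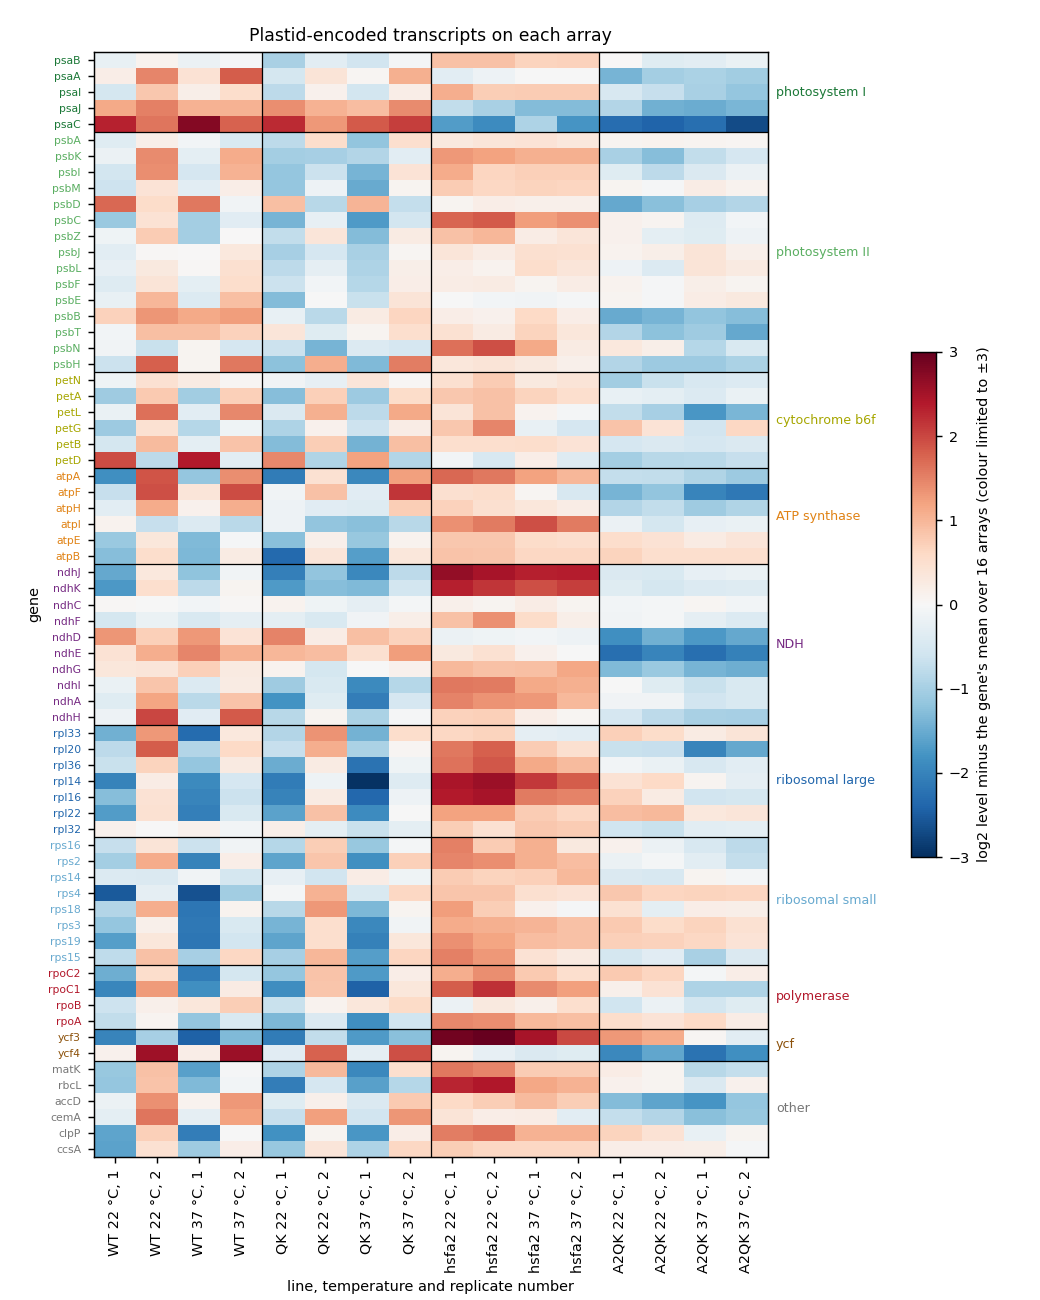
Level of each of the 69 plastid-encoded genes on each of the 16 arrays, as the log2 level minus that gene's mean over all arrays; rows are genes grouped by class, columns are arrays labelled by line, temperature and replicate number. In WT and QK the columns of replicates 1 and 2 differ in colour, in hsfa2 and A2QK they match, and psaC, ycf3 and ndhJ differ mainly between lines.

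**Figure D2:**
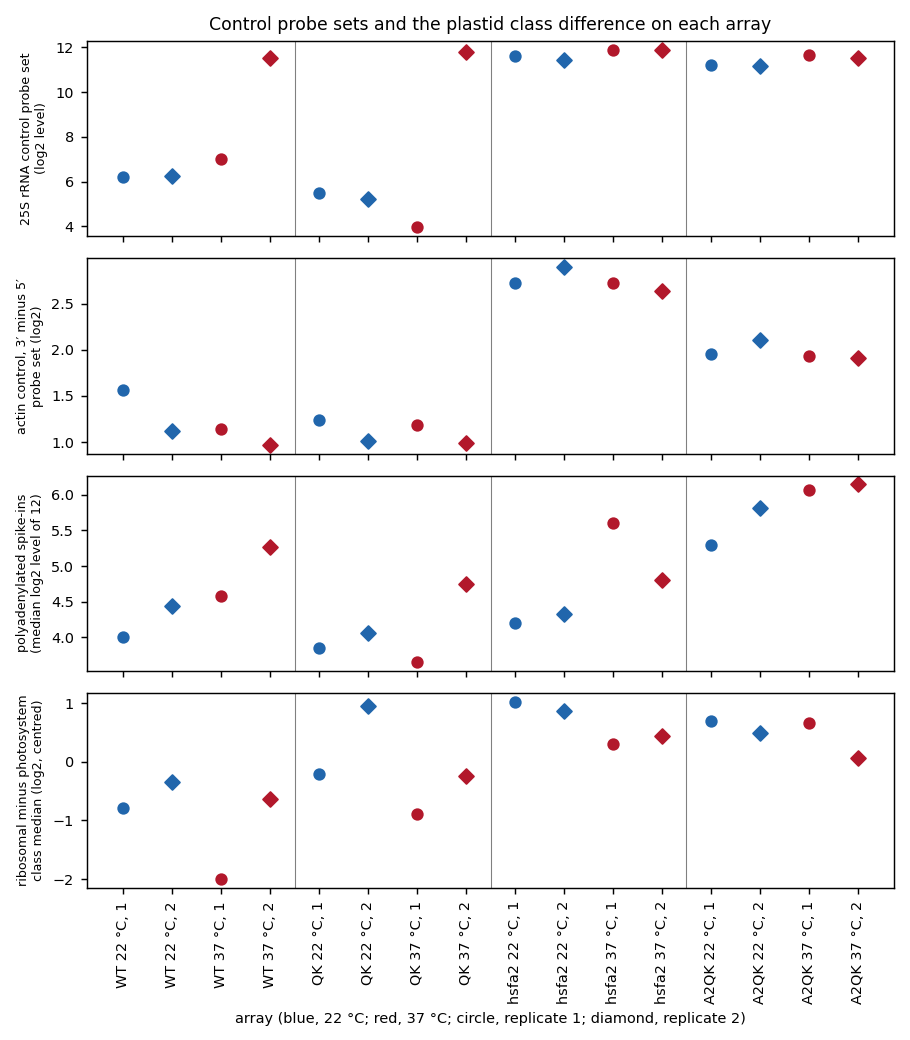
From top to bottom and on a log2 scale, the 25S rRNA control probe set, the actin 3′ minus 5′ difference, the median of 12 polyadenylated spike-ins, and the median centred level of the 15 ribosomal protein genes minus that of the 20 photosystem genes, with 1 point per array (blue 22 °C, red 37 °C, circle replicate 1, diamond replicate 2). The 25S rRNA signal is high on all hsfa2 and A2QK arrays and on replicate 2 of the heated WT and QK groups, and the class difference has a lower mean at 37 °C than at 22 °C in each line.

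Heat changes of plastid transcripts were small in every line, and ribosomal protein and polymerase genes had lower median changes than photosystem genes. The median change of the 15 ribosomal protein genes was -0.65 in WT, -0.51 in hsfa2, -0.54 in QK and -0.28 in A2QK on the log2 scale, while that of the 20 photosystem genes was 0.08, -0.07, 0.18 and 0.04. For the 4 polymerase genes the medians were -0.47, -0.53, -0.44 and -0.35, and for the 10 NDH genes -0.03, -0.25, -0.08 and -0.12. The changes were negative in all 4 lines for 12 of 15 ribosomal genes and 3 of 4 polymerase genes, against 3 of 20 photosystem genes, 3 of 10 NDH genes and 5335 of all 22746 probe sets. With the array medians made equal, which shifts the median change of all probe sets to between 0.10 and 0.21 in the 4 lines, these counts were 9 of 15, 2 of 4, 1 of 20 and 3 of 10. Then 9 of 20 photosystem genes were positive in all 4 lines, the photosystem median in hsfa2 turned to 0.12 and the NDH medians in WT and A2QK to 0.10 and 0.07. The ribosomal medians in WT, hsfa2, QK and A2QK were then -0.51, -0.33, -0.47 and -0.08, and the polymerase medians -0.33, -0.35, -0.37 and -0.16. These medians and counts describe the classes and carry no test. The medians of the 6 cytochrome b6f genes were -0.01, -0.27, 0.02 and -0.02, and those of the 6 ATP synthase genes -0.03, -0.29, 0.37 and -0.17. With equal array medians the cytochrome b6f medians turned to 0.12 in WT and 0.18 in A2QK, and the ATP synthase medians to 0.10 and 0.03.

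**Figure D3:**
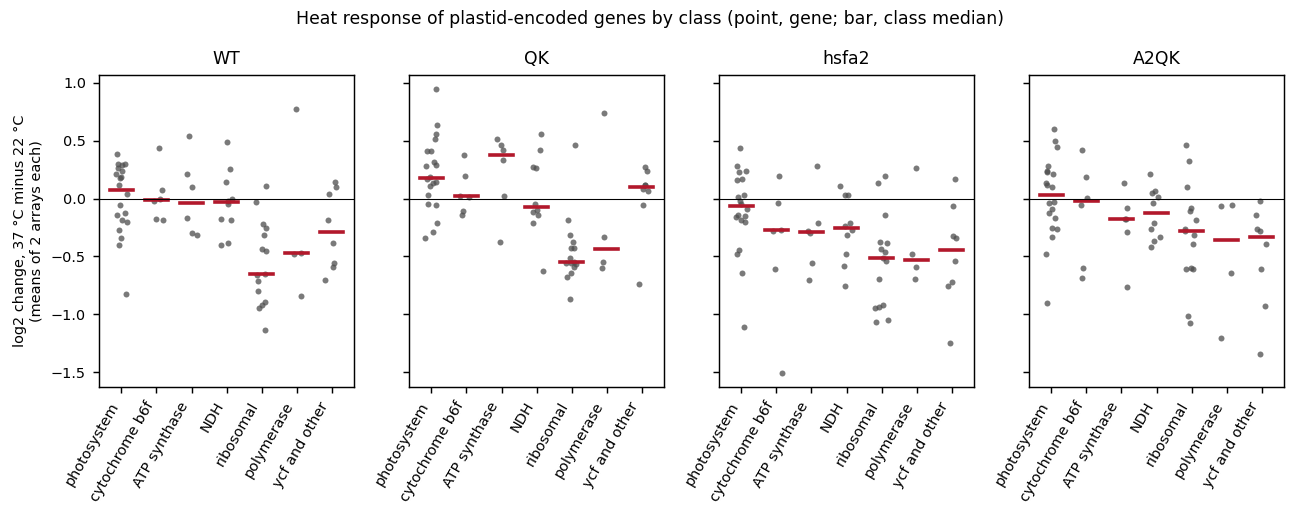
Log2 change from 22 °C to 37 °C of each plastid-encoded gene (point), by class and line, with the class median as a red bar; each change is a difference of 2-array means. The ribosomal and polymerase medians lie below 0 in all 4 lines (ribosomal -0.65 in WT, -0.51 in hsfa2, -0.54 in QK and -0.28 in A2QK) and the photosystem medians lie between -0.07 and 0.18.

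The brightest members of several classes show the size of the heat differences beside the spread of the arrays. In the ribosomal class rpl22 (large subunit) ranged over the 16 arrays from 7.74 to 11.02 (median 10.21) with differences of 37 °C minus 22 °C of -0.65, -0.51, -0.59 and -0.60 in WT, hsfa2, QK and A2QK. rps4 (small subunit) ranged from 8.41 to 12.08 (median 11.58) with -0.43, -0.38, -0.43 and -0.08. Both had lower group means after heat in every line, rps4 in A2QK by little. psbM, a small subunit of photosystem II, ranged from 10.20 to 12.48 (median 11.81) with 0.04, -0.04, -0.06 and 0.13. atpE, the epsilon subunit of the ATP synthase, ranged from 11.05 to 13.19 (median 12.66) with -0.29, -0.28, 0.03 and -0.17. ndhI of the NDH complex ranged from 8.85 to 12.36 (median 10.49) with -0.40, -0.47, -0.63 and -0.37, and ccsA from 9.04 to 11.39 (median 10.86) with 0.14, -0.06, 0.24 and -0.14. None of these differences was called in the fit over all arrays.

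On single arrays the class difference varied with the replicate. The median centred level of the ribosomal genes minus that of the photosystem genes was -0.79 and -0.35 in WT at 22 °C and -2.01 and -0.64 at 37 °C. It was -0.21 and 0.95 against -0.89 and -0.24 in QK and 1.02 and 0.87 against 0.31 and 0.44 in hsfa2. In WT and QK, whose numbers were treated as pairs, each replicate was lower at 37 °C than its own number at 22 °C. The temperatures did not overlap in hsfa2 and, by little, in QK, and did in WT. In A2QK the values, 0.70 and 0.49 against 0.66 and 0.07, overlapped. The polymerase genes gave -0.87 and -0.44 against -1.52 and -0.64 in WT and -0.47 and 0.67 against -1.01 and 0.04 in QK, which overlap. They gave 0.90 and 1.10 against 0.38 and 0.38 in hsfa2 and 0.60 and 0.97 against 0.29 and 0.24 in A2QK, which do not. The NDH genes gave 0.06 and -0.17 against -0.40 and -0.28 in WT and 0.57 and 0.81 against 0.24 and 0.25 in hsfa2, with no overlap. In QK and A2QK they overlapped, with 0.22 and -0.21 against 0.15 and -0.27 and with -0.13 and 0.06 against -0.04 and -0.12.

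Gene by gene, almost no member passed the test in the fit over all 16 arrays (limma, Benjamini-Hochberg adjusted over 22746 probe sets, called at an adjusted p under 0.05). In WT 0 of 69 were called, with 1 at an unadjusted p under 0.05, where 3.31% of all probe sets were raised and 5.33% lowered. In hsfa2 0 were raised and 2 lowered, psbN at -1.11 ± 0.33 (SE; adjusted p = 0.048) and ndhF at -0.76 ± 0.20 (adjusted p = 0.031), where 5.61% of all were raised and 8.33% lowered. In QK psbB, the CP47 antenna protein of photosystem II, was the single member raised (0.95 ± 0.25; adjusted p = 0.0434; from 8.21 and 7.61 to 8.66 and 9.07) and 0 were lowered, where 2.52% were raised and 4.34% lowered. In A2QK 0 were called, with 3 at an unadjusted p under 0.05, where 6.59% were raised and 9.21% lowered. With 1 array left out, ndhF in hsfa2 was called in 14 of 16 fits, psbN in hsfa2 in 7 and psbB in QK in 5 (without either WT array of 22 °C, replicate 1 of QK at 22 °C or either hsfa2 array of 37 °C). Levels of ndhF were at most 4.10 on any array, where RMA values are compressed. The hsfa2 count was 0 without replicate 2 of hsfa2 at 22 °C or at 37 °C. It was 1 in 7 other fits (replicate 1 of hsfa2 at 22 °C, and either replicate of QK at 37 °C and of A2QK at both temperatures). In A2QK 1 member was called without replicate 1 or 2 of QK at 22 °C. For the mean heat response of the 4 lines, a comparison added after the data were seen, psbB (0.40 ± 0.12) and rps14 (0.29 ± 0.09) were raised and 0 lowered, against 14.3% raised and 19.0% lowered of all.

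In the blocked fit 11 members were lowered and 1 raised in WT (10.4% and 5.31% of all probe sets), and 7 of the 11 encode ribosomal proteins. The ribosomal genes were rps18 (-1.14 ± 0.22; adjusted p = 0.00446), rps2, rpl33, rpl16, rps3, rps19 and rpl22 (-0.65 ± 0.19; adjusted p = 0.0386). rps18, a small-subunit protein whose gene lies beside rpl33, stood at 6.74 and 8.69 at 22 °C and 5.43 and 7.72 at 37 °C in WT, so each replicate was lower after heat while the groups overlapped. rpl33, of the large subunit, went from 7.82 and 10.55 to 6.94 and 9.58 in the same way. The other lowered members were rpoC2 of the polymerase (-0.84 ± 0.18; adjusted p = 0.0076), psbZ of photosystem II, matK and clpP. The raised member was rpoB (0.77 ± 0.17; adjusted p = 0.00906), which was under 5 on every array, where RMA values are compressed. In QK 6 of the 69 members were lowered and 4 raised, close to the shares of all probe sets (8.99% and 5.19%). There, rps18 (-0.87 ± 0.22; adjusted p = 0.023), rpl33, rps3, rpoC2, matK and ndhI were lowered. psbB, rpoB, psaA and psbE (0.52 ± 0.14; adjusted p = 0.0272) were raised. rps18, rpl33, rps3, rpoC2, matK and rpoB were thus called the same way in WT and QK. The heat comparisons of these lines share no arrays, but both come from the blocked fit, with a shared replicate block and error. The calls in WT and QK are therefore not independent. The share of all probe sets called the same way in both lines is not given here.

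The fit over all arrays pools the wide WT and QK replicates with the others: its median residual SD was 0.65 for the members and 0.22 for all probe sets. With the 8 hsfa2 and A2QK arrays fitted alone, a setting chosen after seeing the data, heat lowered 21 members and raised 0 in hsfa2 (14.8% and 9.69% of all probe sets). It lowered 12 and raised 3 of the 69 in A2QK (16.9% and 10.3% of all). The lowered count in A2QK is close to the share of all probe sets, and the raised count is below it. The 21 in hsfa2 held 7 of 15 ribosomal, 2 of 4 polymerase, 3 of 20 photosystem, 2 of 10 NDH, 2 of 6 ATP synthase and 1 of 6 cytochrome b6f genes, and 4 of the 8 other members. rpl16 of the large subunit went from 10.82 and 10.91 to 9.98 and 9.91 in hsfa2 (-0.92 ± 0.17; adjusted p = 0.00444). In A2QK it went from 9.12 and 8.67 to 7.86 and 7.90 (-1.01 ± 0.17; adjusted p = 0.00209), with no overlap in either line. rpoC1 of the polymerase went from 9.53 and 9.91 to 9.12 and 8.94 and from 7.85 and 8.14 to 6.79 and 6.79 (in A2QK -1.20 ± 0.17; adjusted p = 0.001). rbcL, which encodes the large subunit of Rubisco, was lowered in hsfa2 (-1.24 ± 0.19; adjusted p = 0.00164; 10.51 and 10.63 to 9.38 and 9.28), while in A2QK its change was -0.26 ± 0.19 (adjusted p = 0.36). The 3 members raised in A2QK were psbL (0.60 ± 0.15; adjusted p = 0.0154) and psbK, small subunits of photosystem II, and rps14. In both of these lines 10 members were lowered: rpl16, rpl20 and rpl22, rpoC1 and rpoC2, atpF, psbN, ycf3, matK and clpP. The share of all probe sets lowered in both lines was not computed, and both comparisons come from 1 fit with a shared error.

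No difference between heat responses was called for any member in the fit over all arrays. The counts were 0 of 69 for hsfa2 against WT (0.00440% of all probe sets called; 2 members at an unadjusted p under 0.05). They were 0 for QK against WT (1.51%; 0 members) and 0 for A2QK against QK (2.02%; 3 members). The blocked fit also called 0 for QK against WT. A response that was called in one line and not in another is therefore not shown to differ between them. The median difference of the members' heat responses was -0.11, 0.13 and -0.19 in these 3 comparisons, within ranges of -1.32 to 0.65, -0.59 to 0.76 and -1.46 to 0.97.

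The genes of the mitochondrial genome, the other organelle genome on the array, gave 11 single-gene probe sets. Of these, heat raised 10 in WT, 8 in hsfa2, 9 in QK and 10 in A2QK. Of all probe sets it raised 3.31%, 5.61%, 2.52% and 6.59%. Most of the 11 were dim at 22 °C (nad6 read 2.88 and 3.19 in WT), where RMA values are compressed. Their median changes were 4.38, 3.87, 4.75 and 3.44, while the medians over the 69 plastid genes were -0.17, -0.28, 0.02 and -0.17. No test of this difference between the genomes was made. Of 61 listed nuclear genes for photosystem, light-harvesting and other photosynthesis proteins 9 were measured. Their median heat changes were -0.32, -0.30, -0.10 and -0.02 in WT, hsfa2, QK and A2QK. In hsfa2 1 of the 9 was lowered, where 8.33% of all probe sets were. Of 36 listed nuclear NDH genes 4 were measured, with median heat changes of -0.17, -0.08, -0.15 and -0.06. In QK 1 of the 4 was lowered, where 4.34% of all probe sets were. The listed nuclear genes for plastid ribosomal proteins and for the plastid transcription machinery matched no single-gene probe set and are not analysed here. Of 12 root marker genes 2 were measured, with median heat changes of -1.09, -1.20, -1.34 and -1.83, and differed between lines by a median of at most 0.54 at one temperature.

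The differences between hsfa2 and WT ranged further, from -3.73 to 4.43 at 22 °C and -3.60 to 4.10 at 37 °C, against -1.14 to 0.77 for heat in WT, and neighbouring genes could differ in sign. In hsfa2 against WT 12 members were raised and 2 lowered at 22 °C (3.98% and 3.92% of all probe sets), and 8 raised and 3 lowered at 37 °C (4.18% and 3.83%). All 15 ribosomal genes had positive differences at both temperatures (medians 1.39 and 1.50), as did 4 and 3 of the 4 polymerase genes (medians 1.73 and 1.85). The 20 photosystem genes had medians of 0.32 and 0.24 and ranged from -3.73 to 2.19 at 22 °C. These counts rest on few arrays and on the pooled error: fitted with the 2 compared groups alone, 0 members were called at either temperature, where 0% and 0.00440% of all probe sets were. At 22 °C 6 were called without hsfa2 replicate 1 and 6 without replicate 2 of that group. At 37 °C there were 5 and 6 without WT replicates 1 and 2, and 6 and 5 without hsfa2 replicates 1 and 2 of that temperature. The actin control probe sets differ along the same line boundary at both temperatures. The 25S rRNA probe set does so at 22 °C, where it was 5.29 higher in hsfa2 than in WT. At 37 °C it read 7.00 and 11.50 in WT and 11.89 and 11.86 in hsfa2. The median of the bioB hybridisation spike-ins was 4.50 to 4.72 on the 4 hsfa2 arrays and 6.69 to 7.30 on the 4 WT arrays. The part of these controls in the differences was not tested.

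ycf3, an assembly factor of photosystem I, showed the largest positive difference. Its levels at 22 °C were 5.03 and 6.02 in WT, 4.92 and 6.27 in QK, 9.90 and 10.02 in hsfa2 and 8.31 and 8.12 in A2QK. At 37 °C they were 4.60 and 5.69 in WT, 5.31 and 5.77 in QK, 9.49 and 8.99 in hsfa2 and 7.07 and 6.68 in A2QK, so the WT and hsfa2 arrays did not overlap at either temperature. The difference hsfa2 minus WT was 4.43 ± 0.47 at 22 °C (adjusted p = 0.000549) and 4.10 ± 0.47 at 37 °C (adjusted p = 0.000916). A2QK was higher than QK by 2.62 ± 0.47 at 22 °C (adjusted p = 0.00592), and at 37 °C the difference was 1.34 ± 0.47 (adjusted p = 0.0889). In folds, ycf3 was 21.6-fold higher in hsfa2 than in WT at 22 °C. psaA and psaB, the core proteins of photosystem I encoded next to ycf3, had other values. psaA differed by -1.07 and psaB by 0.94 ± 0.24 (adjusted p = 0.0357) in hsfa2 against WT at 22 °C, and by -1.13 and 0.46 in A2QK against QK.

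psaC, which holds the terminal iron-sulphur clusters of photosystem I, showed the largest negative difference. At 22 °C its levels were 8.60 and 7.90 in WT, 8.54 and 7.59 in QK, 4.61 and 4.42 in hsfa2 and 4.02 and 3.88 in A2QK. At 37 °C they were 9.04 and 8.05 in WT, 8.14 and 8.36 in QK, 5.38 and 4.52 in hsfa2 and 4.04 and 3.62 in A2QK. All 8 WT and QK arrays were above all 8 hsfa2 and A2QK arrays. The difference was -3.73 ± 0.40 and -3.60 ± 0.40 in hsfa2 against WT (adjusted p = 0.000631 and 0.00091), and -4.12 ± 0.40 and -4.42 ± 0.40 in A2QK against QK (adjusted p = 0.000267 and 3.06e-05). psaJ, a small photosystem I subunit encoded elsewhere on the chromosome, was lowered in all 4 comparisons too, by -2.18 ± 0.23, -2.35 ± 0.23, -2.38 ± 0.23 and -2.60 ± 0.23 in the same order. At 22 °C the hsfa2 and A2QK levels of psaC lay under 5, where RMA values are compressed, so no fold is given. rpl33 and rps18, which follow psaJ in its cluster, differed by 0.72 and 0.88 in hsfa2 against WT at 22 °C and were not called. The other photosystem I members, psaA, psaB and psaI, were not called lowered in these 4 comparisons.

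The NDH complex carries electrons around photosystem I, and its genes differed from each other also within a cluster. psaC lies inside the ndhH cluster, whose measured genes run rps15, ndhH, ndhA, ndhI, ndhG, ndhE, psaC and ndhD. In A2QK against QK at 22 °C ndhG, ndhE, psaC and ndhD were lowered, at -1.01 ± 0.21, -3.08 ± 0.27, -4.12 ± 0.40 and -2.49 ± 0.38, with adjusted p of 0.0151, 0.000162, 0.000267 and 0.0026. All 4 were lowered at 37 °C too. The genes at the other end of the cluster did not pass the test: ndhI differed by 0.58, ndhA by 0.97, ndhH by -0.26 and rps15 by -0.44. ndhE read 7.25 and 7.91 in WT, 7.82 and 7.74 in QK, 7.10 and 7.28 in hsfa2 and 4.56 and 4.85 in A2QK at 22 °C, so A2QK alone was low. In hsfa2 against WT, ndhE differed by -0.39 ± 0.27 at 22 °C (adjusted p = 0.445) and was lowered at 37 °C by -1.20 ± 0.27 (adjusted p = 0.0245). The same comparison gave ndhD -1.18, ndhG 0.57, ndhI 1.26 and ndhA 1.01 at 22 °C, none of them called.

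The second NDH cluster holds ndhC, ndhK and ndhJ, and there too the genes differed from each other. ndhJ read 6.80 and 8.67 in WT, 6.29 and 7.15 in QK, 10.99 and 10.81 in hsfa2 and 7.92 and 7.88 in A2QK at 22 °C. It read 7.14 and 8.25 in WT, 6.42 and 7.55 in QK, 10.68 and 10.70 in hsfa2 and 8.09 and 8.14 in A2QK at 37 °C. Both hsfa2 arrays were above all others at each temperature. ndhJ was raised in hsfa2 against WT by 3.17 ± 0.56 and 3.00 ± 0.56 at the 2 temperatures (adjusted p = 0.0068 and 0.0097), and ndhK by 2.85 ± 0.55 and 2.35 ± 0.55 (adjusted p = 0.0108 and 0.0264). ndhC, the first gene of the cluster, differed by 0.11 ± 0.14 and 0.16 ± 0.14 and lay between 10.10 and 10.58 on all 16 arrays. In A2QK against QK, ndhJ differed by 1.18 ± 0.56 and 1.13 ± 0.56 and ndhK by 1.05 ± 0.55 and 0.54 ± 0.55, none called.

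**Figure D4:**
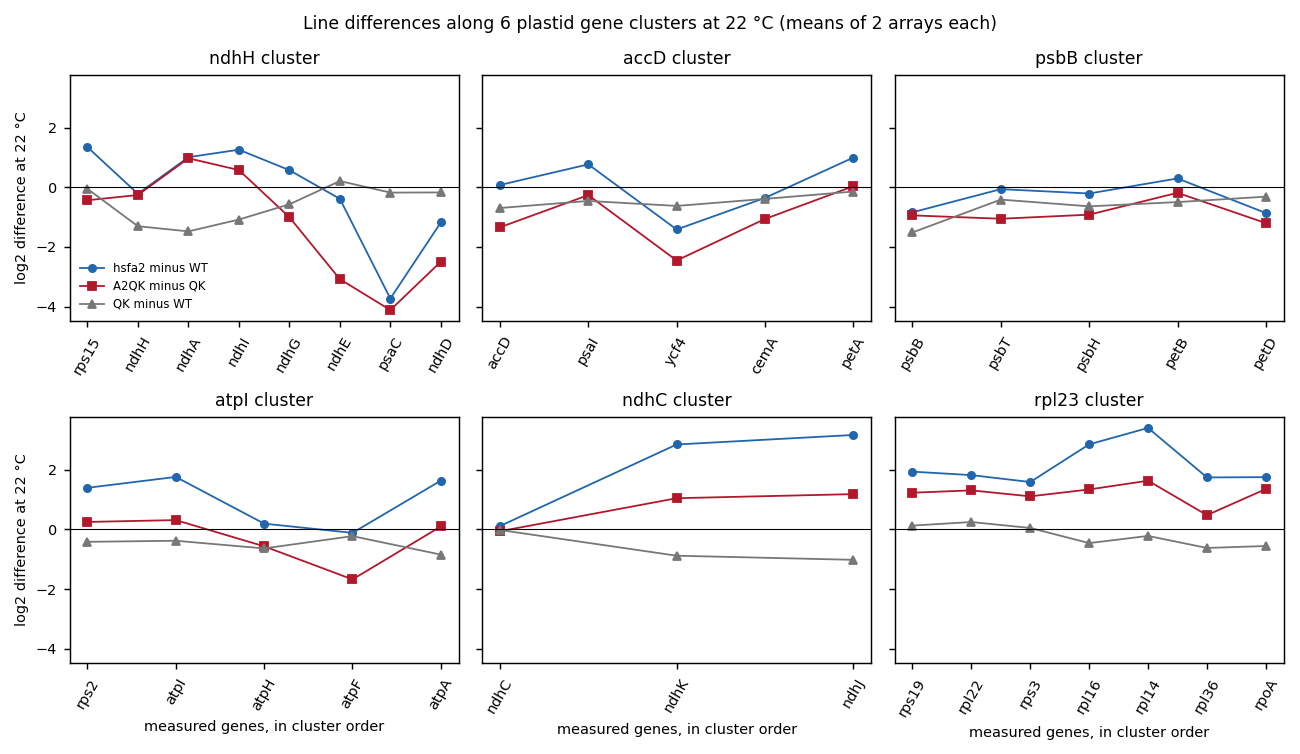
Log2 differences at 22 °C between lines (hsfa2 minus WT, A2QK minus QK, QK minus WT) for the measured genes of 6 plastid gene clusters, in cluster order on the x axis; each point is a difference of 2-array means. Within the ndhH cluster the A2QK minus QK difference runs from 0.97 at ndhA to -4.12 at psaC, in the rpl23 cluster all hsfa2 minus WT differences are positive, and in the ndhC cluster ndhC stays near 0 beside ndhK and ndhJ.

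The ribosomal cluster that runs from rps19 to rpoA had positive differences throughout in hsfa2 against WT at 22 °C: rps19 1.94, rpl22 1.82, rps3 1.59, rpl16 2.85, rpl14 3.40, rpl36 1.74 and rpoA 1.75. Of these, rpl14, of the large subunit, was called at 22 °C (3.40 ± 0.89; adjusted p = 0.0393) and not at 37 °C (3.18 ± 0.89; adjusted p = 0.0503). Its levels at 22 °C were 6.74 and 8.95 in WT, 6.65 and 8.60 in QK, 11.19 and 11.30 in hsfa2 and 9.17 and 9.34 in A2QK. rpoA, the alpha subunit of the polymerase, was called at both temperatures (1.75 ± 0.42 and 1.75 ± 0.42; adjusted p = 0.0276 and 0.029), and at 37 °C also in A2QK against QK (1.63 ± 0.42; adjusted p = 0.0261). rpoA read 9.39 and 10.22 in WT, 8.80 and 9.70 in QK, 11.58 and 11.54 in hsfa2 and 10.67 and 10.55 in A2QK at 22 °C; the hsfa2 arrays were above the WT arrays, and the A2QK arrays above the QK arrays. rpoC1 and rpoC2, in the other polymerase cluster, differed by 2.34 ± 1.15 and 1.70 ± 0.80 in hsfa2 against WT at 22 °C, and were not called. rpoC1 read 5.76 and 8.99 in WT and 9.53 and 9.91 in hsfa2, with WT replicate 1 far below the other 3 arrays. rps14 (both temperatures) and rpl32 (37 °C) were the other ribosomal genes raised in hsfa2; rps14 was under 5 on every array.

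Among the remaining classes, atpI, a membrane subunit of the ATP synthase, was raised in hsfa2 at both temperatures (1.76 ± 0.34 and 2.36 ± 0.34; adjusted p = 0.0108 and 0.00309). Its cluster neighbours atpH, atpF and atpA differed by 0.19, -0.12 and 1.63 at 22 °C and were not called. psbC, the CP43 antenna protein of photosystem II, was raised at both temperatures (2.14 ± 0.51 and 1.99 ± 0.51). With 1 array left out, the psbC call at 37 °C held in 6 of 16 fits, those without a WT array of 22 °C or any of the 4 QK arrays. Raised at one temperature were psbN and rbcL at 22 °C (2.19 ± 0.33 and 2.50 ± 0.64), and ndhF at 22 °C (1.48 ± 0.20). ndhF ranged from 2.21 to 4.10 over the 16 arrays, where RMA values are compressed. The rbcL call held in 7 of 16 such fits, those without replicate 2 of WT at 22 °C, either WT array of 37 °C or any of the 4 QK arrays, and rpl14 held in the same 7. psbN lies on the opposite strand within the psbB cluster; with psbB, psbT, psbH and petD at -0.84, -0.06, -0.21 and -0.87 in the same comparison, it was the one gene there that was raised. No cytochrome b6f member was called in hsfa2 against WT; petB, the cytochrome b6 subunit, differed by 0.29 ± 0.77 and 0.19 ± 0.77. ycf4, the other assembly factor, read 8.24 and 10.66 in WT, 7.77 and 9.88 in QK, 8.20 and 7.87 in hsfa2 and 6.18 and 6.55 in A2QK at 22 °C. Replicate 2 of WT and of QK stood above the other 6 arrays of that temperature. No comparison between lines called it in the fit over all arrays, while the fit of the 8 hsfa2 and A2QK arrays called it lowered in A2QK against hsfa2 at both temperatures (-1.67 ± 0.19 and -1.62 ± 0.19; adjusted p = 0.00102 and 0.000487).

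A2QK against QK shares no array with hsfa2 against WT, but the WT and QK arrays in them share the replicate difference described above, so the 2 comparisons are not independent. It gave 2 raised and 6 lowered members at 22 °C (5.17% and 3.92% of all probe sets) and 1 raised and 8 lowered at 37 °C (6.20% and 6.12%). Besides the genes above, psbN was raised at 22 °C (1.26 ± 0.33; adjusted p = 0.0382). psbB was lowered at both temperatures (-0.94 ± 0.25 and -1.67 ± 0.25; adjusted p = 0.0378 and 0.00113). psbT (-1.59 ± 0.33) and atpF (-2.95 ± 0.87) were lowered at 37 °C. With 1 array left out, atpF was called in 5 of 16 fits (without any of the 4 WT arrays or replicate 1 of QK at 37 °C). psbB read 8.66 and 9.07 in QK and 7.24 and 7.15 in A2QK at 37 °C, with no overlap. Without A2QK replicates 1 and 2 of 22 °C the count at that temperature was 4 and 5 instead of 8. The 2 line differences had the same sign for 54 of 69 members at 22 °C and 53 of 69 at 37 °C (78.3% and 76.8%), and for 69.9% and 61.9% of all probe sets. Across the members the 2 differences correlated with r = 0.86 and 0.84, against 0.62 and 0.31 across all probe sets; members share clusters and RNA samples and the WT and QK arrays share the replicate difference, so these are descriptions. 25S rRNA was 5.84 higher in A2QK than in QK at 22 °C, and the actin 3′ minus 5′ difference 2.03 against 1.13; their part in what the 2 comparisons share was not tested.

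**Figure D5:**
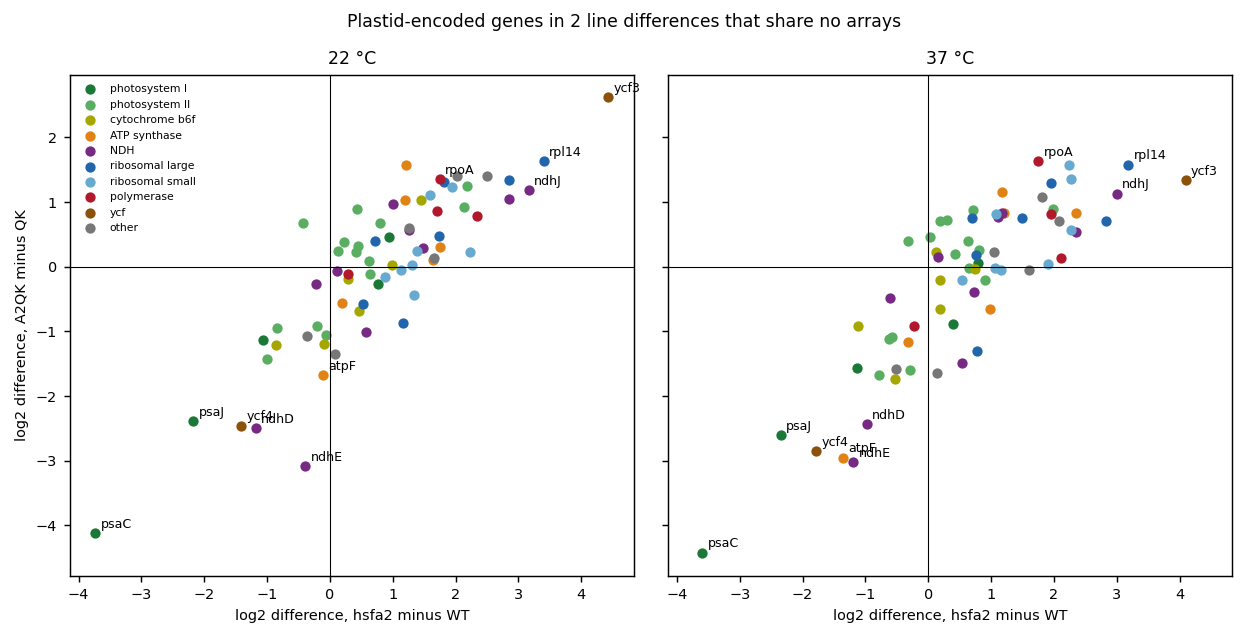
Log2 difference hsfa2 minus WT (x axis) against A2QK minus QK (y axis) for the 69 plastid-encoded genes at 22 °C and 37 °C, coloured by class; the 2 differences share no arrays, but their WT and QK arrays share a replicate difference. At 22 °C psaC lies at -3.73 and -4.12, ycf3 at 4.43 and 2.62, and 54 of 69 genes lie in the quadrants of equal sign.

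QK against WT asks what the loss of the 4 HSFA1 factors, with the mixed background, does to plastid transcripts. The changes were mostly small and negative in the photosystem, NDH, ATP synthase and cytochrome b6f classes and not in the ribosomal class. In detail, 20 of 20 photosystem genes at 22 °C and 19 of 20 at 37 °C were negative (medians -0.57 and -0.52). So were 9 of 10 NDH genes at each temperature (medians -0.73 and -0.51). Of 15 ribosomal genes 7 and 6 were negative (medians 0.01 and 0.28). With equal array medians these were 9 and 7, and the ribosomal median at 22 °C was -0.06. In that setting 59 and 54 of all 69 members were negative, among them 6 and 5 of 6 ATP synthase genes. For the 6 cytochrome b6f genes the counts were also 6 and 5. With the deposited values all probe sets had medians of -0.0009 and 0.01. The photosystem class median level differed by -0.77 and -0.55, beside a spread between replicates of 0.83 and 0.78. For NDH it was -0.71 and -0.27 beside 0.57 and 0.60. In the fit over all arrays psbB was lowered at 22 °C (-1.52 ± 0.25; adjusted p = 0.00903; 9.11 and 9.75 in WT, 8.21 and 7.61 in QK). No other member was called there, and 0 were raised (0.972% and 1.22% of all probe sets lowered and raised). At 37 °C 0 were raised or lowered, where 4.17% and 3.33% of all were, and 4 had an unadjusted p under 0.05. Without replicate 2 of QK at 22 °C the count there was 0, and without replicate 1 of WT at 22 °C it was 3. Without replicate 2 of WT at 22 °C psbB lost its call. At 37 °C the count was 3 without replicate 2 of QK at 37 °C and 2 without replicate 1 or 2 of WT at 22 °C.

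The blocked fit called 1 raised and 11 lowered members at 22 °C (3.58% and 2.98% of all) and 1 raised and 11 lowered at 37 °C (8.45% and 5.64%). The raised one was rps4, of the small ribosomal subunit, at both temperatures (1.90 ± 0.24 and 1.91 ± 0.24; adjusted p = 0.000751 and 0.000215). rps4 read 8.50 and 10.77 in WT and 10.98 and 12.08 in QK at 22 °C, and 8.41 and 9.99 and 10.57 and 11.65 at 37 °C, so QK was the higher line in each replicate number. Against it, A2QK and hsfa2 read 11.85 and 11.67 and 11.86 and 11.87 at 22 °C. At 22 °C the lowered members were 6 photosystem genes (psbK -1.63 ± 0.31, psbB, psbI, psbD, psbE and psaA), 4 NDH genes (ndhA -1.48 ± 0.15, ndhH, ndhI and ndhJ) and rbcL (-1.14 ± 0.25; adjusted p = 0.0196). At 37 °C the same 4 NDH genes were lowered, with psbK, psbL, psbJ, psbD, psaA, petD and rpl36. ndhA read 8.94 and 10.50 in WT and 7.53 and 8.95 in QK at 22 °C (adjusted p = 0.000134), lower in QK for each replicate number although the groups overlapped. ndhH, ndhA and ndhI are consecutive in the ndhH cluster, and rps15 on one side and ndhG on the other differed by -0.05 and -0.57.

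A2QK against hsfa2 compares the line with HSFA2 and without the HSFA1 factors against the reverse, in arrays whose replicates were close and whose 25S rRNA signals were alike. Plastid transcripts were lower in A2QK nearly throughout: 68 of 69 members had a negative difference at 22 °C and 64 of 69 at 37 °C, with medians of -1.35 and -1.10, where all probe sets had medians of 0.01 and -0.06. In the fit over all arrays 0 were raised and 15 lowered at 22 °C (1.62% and 1.13% of all), and 0 raised and 19 lowered at 37 °C (7.58% and 5.82%). NDH genes made up 6 of the 15 and 7 of the 19, photosystem genes 5 and 6, and ribosomal genes 2 and 2. The largest differences at 22 °C were ndhJ (-3.00 ± 0.56; adjusted p = 0.0146), ndhK (-2.68 ± 0.55; adjusted p = 0.0259) and ndhE (-2.48 ± 0.27; adjusted p = 0.000649). At 37 °C they were ndhJ (-2.58 ± 0.56; adjusted p = 0.0108), ndhG (-2.47 ± 0.21; adjusted p = 2.72e-05) and ndhK (-2.40 ± 0.55; adjusted p = 0.015). ndhG read 6.07 and 5.97 in hsfa2 and 3.76 and 3.98 in A2QK at 22 °C, and 6.00 and 6.25 and 3.69 and 3.62 at 37 °C, with no overlap. The counts fell to 2 and 4 without A2QK replicates 1 and 2 and to 5 and 5 without hsfa2 replicates 1 and 2 at 22 °C. For 37 °C they were 7 and 6 without the A2QK replicates and 9 and 9 without the hsfa2 replicates of that temperature.

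With the 8 arrays of these lines fitted alone, 49 members were lowered and 0 raised at 22 °C (3.51% and 5.30% of all probe sets), and 52 lowered and 1 raised at 37 °C (11.6% and 13.0%). The 49 held 9 of 10 NDH, 13 of 20 photosystem, 10 of 15 ribosomal, 2 of 4 polymerase, 4 of 6 ATP synthase and 4 of 6 cytochrome b6f genes. accD, a subunit of the plastid acetyl-CoA carboxylase, read 7.88 and 8.02 in hsfa2 and 5.98 and 5.69 in A2QK at 22 °C (-2.11 ± 0.21; adjusted p = 0.00045). The raised member at 37 °C was rpl33 (0.61 ± 0.14; adjusted p = 0.0116). rps4, raised in QK against WT in the blocked fit, differed by -0.10 ± 0.13 at 22 °C and 0.20 ± 0.13 at 37 °C and was not called. The actin 3′ minus 5′ difference was 2.81 in hsfa2 and 2.03 in A2QK at 22 °C, the median of the polyadenylated spike-ins 4.27 and 5.55, and the bioB hybridisation spike-in 4.55 and 6.84. Their part in these differences was not tested.

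Nuclear genes for plastid RNA processing, which cut, edit, splice or trim plastid transcripts, were measured for 11 of 54 listed. Several of the 11 were dim, where RMA values are compressed (the editing factor OTP84 read 4.33 and 4.05 in WT at 22 °C). In hsfa2 against WT 5 of the 11 were raised at 22 °C and 3 at 37 °C, and 0 were lowered (medians 0.60 and 0.60). Of all probe sets 3.98% and 4.18% were raised and 3.92% and 3.83% lowered. CAF1, a factor for splicing of plastid group II introns, was raised by 1.12 and 1.28 (adjusted p = 0.00243 and 0.00153), and the editing factor OTP84 by 1.35 and 1.76 (adjusted p = 0.0209 and 0.00695). CRR21, an editing factor for ndhD, was raised by 0.79 and 0.84. In A2QK against QK 5 of 11 were raised at 22 °C and 1 at 37 °C (5.17% and 6.20% of all probe sets), with medians of 0.70 and 0.09. Among the raised genes were CRR21 (1.04) and CAF1 (1.07) at 22 °C and OTP84 at both (1.52 and 1.36). Heat lowered 5 of the 11 in A2QK, CRR21 by -1.36 among them, 2 in hsfa2, 1 in WT and 0 in QK. Of all probe sets it lowered 9.21%, 8.33%, 5.33% and 4.34% in the same order. QK against WT called 0 at both temperatures. Of all probe sets that comparison raised 1.22% and lowered 0.972% at 22 °C, and 4.17% and 3.33% at 37 °C. The actin 3′ minus 5′ control value also differed in hsfa2 against WT and in A2QK against QK at both temperatures. 25S rRNA separated these lines at 22 °C, while at 37 °C replicate 2 of WT and of QK was high too. Their part was not tested.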

How the data were processed

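Each of the 16 Affymetrix arrays measured biotinylated cRNA made from total RNA of whole seedlings. The deposited log2 values came from the authors' use of RMA, according to the labels and the submitters' processing notes. RMA corrects background, equalises arrays and summarises probes. The sources used here give neither its version nor the chip definition, nor whether all arrays were normalized together. RMA compresses dim probe sets and reduces a change shared by most transcripts. Arrays have no read depth, and their number limits the precision.

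The tests ran over 22746 of the 22810 probe sets, the other 64 being array controls. Of the tested ones, 13513 carried a single gene in the array annotation, 503 several and 8730 none. Of the 13513, 13436 matched a RefSeq gene (TAIR10.1). Each plastid member had 1 probe set. The members, the nuclear gene lists and the rule for named genes were chosen with earlier results of these data known. By that rule every member may be named with its level. Full values go to the brightest member of each class, the 3 called members with the largest rise and the 3 with the largest fall in each comparison, and psaC, ycf3, rpl14 and ndhJ with their cluster neighbours. Called genes of the nuclear lists and the 5 other genes most like the polymerase and the photosystem II medians may be named too. Where full values would repeat the same pattern, the text gives the change alone.

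Linear models came from limma (version 3.58.1, run under R 4.3.3), using lmFit followed by eBayes. They held 1 coefficient per group and left 8 residual and 3.37 prior degrees of freedom. Adjusted p-values are two-sided and follow Benjamini and Hochberg over all tested probe sets of a comparison. The threshold was 0.05. Values after ± are standard errors of log2 differences. Class medians are taken over the members and have no p-value. A centred level is a gene's level minus its mean over the arrays. The fits were tested on simulated data.

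Pairing was checked by correlating replicate 1 minus replicate 2 between groups across all probe sets. The 6 correlations among WT and QK groups were 0.53 to 0.79, and these numbers were taken as pairs, a reading that comes from the data and not from the labels. The lowest of all 28 correlations was -0.02, and those that involve hsfa2 or A2QK reached at most 0.15, so no pairing was assumed there. Alternatives were a replicate block over all arrays or within the line pairs, equal array medians, a filter on dim probe sets (a group mean of at least 6), the compared groups fitted alone, the mean of a gene's probe sets, and leaving out each array. The fit of the 8 hsfa2 and A2QK arrays and the mean heat response were added after seeing the data.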

Additional observations from a re-analysis of the deposited data

Results flagged for a closer look

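The 25S rRNA control probe set, which enters no comparison, was 5.29 (log2) higher in hsfa2 than in WT and 5.84 higher in A2QK than in QK at 22 °C. At that temperature the 4 hsfa2 and A2QK arrays read 11.16 to 11.61 and the 4 WT and QK arrays 5.20 to 6.25. At 37 °C replicate 2 of WT and of QK was as high as the hsfa2 and A2QK arrays. The part of this signal in the line differences of plastid genes was not tested. Groups of 2 arrays allow no search for outlying samples.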

How the results depend on the processing

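No called member reversed its direction under any of these settings, but most of them leave the log2 difference itself unchanged. It changes only with equal array medians or without an array of the compared groups, so the other settings bear on the calls alone. Of 508 values of called members under other whole fits, 468 stayed called and 40 did not, and of 1280 values with 1 array left out 1036 stayed called and 244 did not. With a replicate block over all arrays, 1 member was called for heat in WT, 2 in QK and 1 in A2QK, 19 for hsfa2 against WT at 37 °C and 2 for QK against WT at 37 °C. The share of all probe sets called was not computed for this setting, equal array medians, the dim filter or fits without 1 array. Counts from those settings, here and above, do not tell a change in plastid genes from a change in all calls. With a block within line pairs the counts were 12 for heat in WT, 16 in hsfa2, 10 in QK and 11 in A2QK (15.7%, 23.2%, 14.2% and 25.3% of all probe sets called). That block gave 48 and 46 for hsfa2 against WT at 22 °C and 37 °C (19.6% and 19.2% of all), 12 and 12 for QK against WT (6.56% and 14.1%), and 41 and 43 for A2QK against QK (19.9% and 22.2%). It gave 48 and 51 for A2QK against hsfa2 (7.17% and 22.7%) and 2 for the difference of heat responses of A2QK and QK (5.33%). It removes the WT and QK replicate difference from the error of comparisons between line pairs, where the numbers pair nothing.

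With the compared groups fitted alone, the counts were 10 for heat in hsfa2, 0 in QK and 18 in A2QK (15.0%, 0.185% and 32.5% of all). They were 0 and 0 for hsfa2 against WT (0% and 0.00440%), 0 for QK against WT at 22 °C (0%), 3 for A2QK against QK at 22 °C (1.94%), and 49 and 46 for A2QK against hsfa2 (10.2% and 16.9%). The 8 hsfa2 and A2QK arrays alone gave 21 and 15 for heat, and 49 and 53 for A2QK against hsfa2. The mean heat response of the 4 lines called 2 members. These 2 settings were chosen after seeing the data. With equal array medians the counts were 0 for heat in hsfa2, 1 in A2QK and 1 for QK against WT at 37 °C, and the filter on dim probe sets gave 1 for heat in hsfa2. Apart from the fits with fewer arrays, the cause of these differences was not tested.

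Leaving out 1 array gave counts of 0 throughout for heat in WT and for the 3 differences of heat responses, 0 to 2 for heat in hsfa2, 0 to 1 in QK and in A2QK, 6 to 17 and 5 to 16 for hsfa2 against WT at 22 °C and 37 °C, 0 to 3 and 0 to 3 for QK against WT, 4 to 10 and 6 to 12 for A2QK against QK, and 2 to 18 and 6 to 22 for A2QK against hsfa2. Of 240 class values, 6 moved by more than the replicate spread, all of them with equal array medians. Only that setting could move a value so far. Leaving out 1 of the 2 arrays of a group moves a difference by less than this spread. The mean of a gene's probe sets changes nothing, as each member had 1. The 234 others are therefore no sign of stability. The 6 were heat differences of the class median levels (not medians of changes). In hsfa2 they went from 0.08 to 0.27 (photosystem), -0.36 to -0.18 (NDH), -0.49 to -0.30 (ribosomal) and -0.53 to -0.35 (polymerase). In A2QK they went from -0.10 to 0.10 (NDH) and -0.57 to -0.37 (polymerase). With equal medians the median change of all probe sets was, for example, 0.14, 0.21 and 0.19 for heat in WT, hsfa2 and A2QK and -0.19 for A2QK against hsfa2 at 37 °C. Dim members near the lower end of the RMA scale have compressed changes.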

Other observations

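Outside the plastid genes, the single-gene probe set whose profile over the 16 arrays was most like the median of the 4 polymerase genes was that of AT3G10610 (Pearson r = 0.92), followed by AT1G05140, AT3G06680, AT3G53890 and AT1G19970. For the median of the 15 photosystem II genes it was that of AT3G21950 (r = 0.87), followed by AT4G13440, AT1G07550, AT4G15390 and AT1G06690. The arrays share lines and replicate pairs, so these values are descriptions without a test.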
